A study of Mus musculus with 4 samples.

Results

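RNA-seq libraries of mouse bone marrow-derived macrophages with high counts of Lyz1, the gene of the P lysozyme, were compared with libraries that had low counts of it. The 2 libraries of each side were chosen by their measured Lyz1 level, above 20 CPM (counts scaled to a common library size) on one side and below 10 CPM on the other, and not by title or genotype. All 4 libraries of the series fell on a side. The high-Lyz1 side holds the untreated library titled KO and the lipopolysaccharide (LPS) library titled WT. The low-Lyz1 side holds the untreated library titled WT and the LPS library titled KO. Each side therefore has 1 untreated and 1 LPS library, and treatment is balanced between the sides. By title, the comparison is KO over WT in the untreated pair and WT over KO in the LPS pair. A difference between the sides thus cannot be told apart from a difference between the titles that reverses with LPS.

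The study cultured macrophages from marrow of C57BL/6 mice aged 6 to 8 weeks for 6 days, with L929-conditioned medium as the source of M-CSF, and sequenced them before and after 3 h of LPS, the bacterial ligand of Toll-like receptor 4. In the study design WT stands for FBXW7f/f and KO for LysM-cre FBXW7f/f, so both genotypes carry the floxed allele. LysM-cre is a Cre insertion at Lyz2, active in myeloid cells, and FBXW7 is the substrate receptor of an SCF ubiquitin ligase. The genotype tags do not follow the titles: they read FBXW7f/f on both untreated libraries and LysM-cre FBXW7f/f on both LPS libraries. Neither the titles nor the tags divide the libraries as Lyz1 does, and which genotype a library holds cannot be told apart from these labels. There was 1 library for each title, the labels do not say how many mice stand behind it, and Xist and 4 Y-linked genes were counted in all 4 libraries. Each side has 1 library per treatment, and the sides were set from the same counts, so no test between sides was made.

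Library totals were 17610372 counts for the untreated low-Lyz1 library and 23835940 for the untreated high-Lyz1 library, and 19464937 and 20947275 for the low- and high-Lyz1 libraries after LPS. The high-Lyz1 library was thus the deeper of its pair in both treatments. Mitochondrial genes took 1.51% and 1.52% of counts in the low-Lyz1 libraries and 1.31% and 1.23% in the high-Lyz1 libraries, and the part of this difference in the results was not tested. Fbxw7 itself was at 17.9 and 17.2 CPM in the untreated low- and high-Lyz1 libraries and at 11.7 and 9.90 CPM in the LPS pair, within counting error of equal in both pairs. The floxed exons were not counted separately, so these values do not check the deletion.

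Lysozymes hydrolyse the peptidoglycan of bacterial cell walls. Mice carry a tandem pair of lysozyme genes. Lyz2 encodes the M form, a main product of macrophages that is stored in lysosomes and secreted. Lyz1 encodes the P form, best known from Paneth cells of the gut and at lower levels from other cells. Macrophages grown from marrow in M-CSF pass from monocyte-like cells that still divide to resting adherent cells, and LPS then turns on cytokine, chemokine and interferon-response genes through NF-kB and interferon regulatory factors.

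Lyz1 (ENSMUSG00000069515) lies on the minus strand at chr10:117287797-117292868 and Lyz2 (ENSMUSG00000069516) on the same strand at chr10:117277331-117282321 (mm10). The sequences upstream of both genes are shown because one gene tells the sides apart by a large ratio and its neighbour by a small one. Each is read 5′ to 3′ on the minus strand of GRCm38.p6 from RefSeq, from 250 to 51 bases before the annotated start, and capitals mark bases that differ between the aligned pair. The RefSeq start of Lyz2 lies 49 bases inside the gene as the file gives it, so its stretch ends just before the file's start.
Lyz1, chr10:117292919-117293118: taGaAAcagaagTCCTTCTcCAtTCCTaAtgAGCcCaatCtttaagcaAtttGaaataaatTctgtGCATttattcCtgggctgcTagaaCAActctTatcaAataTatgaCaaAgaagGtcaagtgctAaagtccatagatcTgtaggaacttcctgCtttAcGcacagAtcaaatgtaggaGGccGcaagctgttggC
Lyz2, chr10:117282323-117282522: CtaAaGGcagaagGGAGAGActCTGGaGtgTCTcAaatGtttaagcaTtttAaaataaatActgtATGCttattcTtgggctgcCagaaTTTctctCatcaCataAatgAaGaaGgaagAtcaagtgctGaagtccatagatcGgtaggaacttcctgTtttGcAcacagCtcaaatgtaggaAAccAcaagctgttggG
These stretches were 75.8% identical over 198 aligned bases. The transcripts were 96.0% identical over 1262 aligned bases, so a read from one gene can be assigned to the other, and the Lyz1 level is uncertain to that extent.

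By library total, Lyz1 stood at 3.58 and 2.21 CPM in the untreated and LPS low-Lyz1 libraries and at 38.2 and 27.2 CPM in the high-Lyz1 libraries. The library nearest to a threshold on the high side was the LPS library at 27.2 CPM, and on the low side the untreated library at 3.58 CPM. Further levels are CPM after TMM scaling, which adjusts library sizes for a few very abundant genes. On that scale Lyz1 was at 2.86 and 32.9 CPM in the untreated low- and high-Lyz1 libraries and at 2.63 and 33.1 CPM in the LPS pair. These values chose the sides and are given as a description. Lyz2 ran the other way and was far more abundant, at 15253 and 8711 CPM in the untreated low- and high-Lyz1 libraries and 18238 and 9917 CPM in the LPS pair. It was 1.75-fold lower in the high-Lyz1 library untreated (95% counting interval 1.74 to 1.76) and 1.84-fold lower after LPS (1.83 to 1.85). Lyz2 was short of the 2-fold used below. It is also the locus of the LysM-cre insertion.

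A gene is called higher or lower here when the high-Lyz1 library differed from the low-Lyz1 library by at least 2-fold in the same direction in both treatments, with an exact 95% binomial interval on its counts that excluded no change in each pair. The pairs share no library, but the sides were set by a gene of the same counts, so every count below is a description. Intervals cover counting error only. Where 2 levels are given for a pair of libraries, the low-Lyz1 library comes first. In bulk RNA, fewer cells of a type and less RNA per cell cannot be told apart. Of 12326 genes with a mean of at least 1 CPM, 221 were higher in the high-Lyz1 libraries in both treatments (1.79%) and 147 were lower in both (1.19%), together 2.99%. Another 6 genes (0.0487%) passed in opposite directions.

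The untreated pair alone had 389 genes higher (3.16%) and 250 lower (2.03%), and the LPS pair 593 higher (4.81%) and 421 lower (3.42%). The 221 genes were 56.8% of those higher in the untreated pair and 37.3% of those higher after LPS. The 147 genes were 58.8% and 34.9% of those lower in each pair. Among the genes higher in the untreated pair only, 132 of 166 had the same sign after LPS, and among those higher after LPS only, 292 of 368 had the same sign untreated. Across genes, which are not independent, the log2 ratios of the pairs had a Pearson r of 0.607 and a Spearman rho of 0.532, and 69.2% of all genes had the same sign in both.

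**Figure D1:**
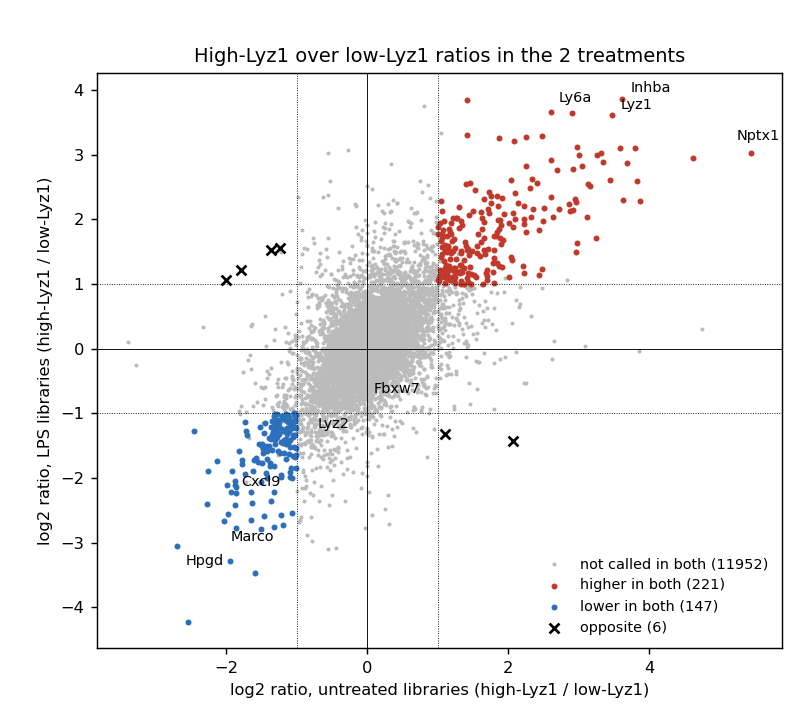
Log2 ratio of the high-Lyz1 over the low-Lyz1 library for each of the 12326 genes, in the untreated pair (horizontal axis) and the LPS pair (vertical axis), with the 221 genes higher and 147 genes lower in both treatments coloured. Most genes lie near 0 in both pairs (medians 0.03 and 0.02), and the coloured genes extend along the diagonal.

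The higher genes reached larger ratios than the lower ones. At 4-fold or more in both treatments there were 49 higher and 4 lower genes, and at 8-fold or more 6 higher and none lower. Their median log2 ratio was 1.57 untreated and 1.69 after LPS, and that of the lower genes was -1.30 and -1.48, beside 0.03 and 0.02 for all genes tested. Protein-coding genes made up 199 of the 221 and 138 of the 147, and long intergenic RNA genes 11 and 4.

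The gene with the largest smaller ratio of the pairs, among those with a mean of at least 5 CPM, was Inhba, which encodes the activin beta-A chain, a TGF-beta family ligand. Inhba was at 0.136 CPM (3 counts) in the untreated low-Lyz1 library and 2.75 CPM in the high-Lyz1 library, 20.2-fold higher with an interval of 6.65 to 100. After LPS it was at 4.59 and 68.0 CPM, 14.8-fold higher (11.7 to 19.0). The level was higher with LPS than without on both sides, and the LPS high-Lyz1 library stood above the other 3.

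Hmga2, an architectural chromatin protein gene active in embryonic and proliferating cells, was at 1.36 and 17.5 CPM in the untreated pair and 1.28 and 11.8 CPM in the LPS pair, 12.9-fold and 9.2-fold higher. Itgb7, the integrin beta-7 chain of leukocyte homing receptors, was at 1.90 and 27.8 CPM in the untreated pair and 1.53 and 13.8 CPM in the LPS pair, 14.6-fold and 9.02-fold higher. In both genes the sides did not overlap. Best1, which encodes the chloride channel bestrophin-1, was at 1.5 and 12.5 CPM in the untreated pair and 1.22 and 11.3 CPM in the LPS pair. Npy, the neuropeptide Y gene, was at 11.5 and 88.3 CPM in the untreated pair and 14.0 and 95.8 CPM in the LPS pair, 7.66-fold and 6.87-fold higher. Napsa, an aspartic protease gene, was at 3.95 and 24.7 CPM in the untreated pair and 3.85 and 29.7 CPM in the LPS pair. In these 5 genes the levels of the low-Lyz1 side lay below those of the high-Lyz1 side in both treatments.

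Other leading genes moved with LPS as well. Nptx1, a neuronal pentraxin gene, had the largest untreated ratio of the 15 named, 0.454 and 23.8 CPM, 52.5-fold (28.4 to 110). After LPS it was at 0.122 CPM (2 counts) and 1.69 CPM, 13.8-fold with an interval of 3.49 to 119. Dio2, the deiodinase that activates thyroid hormone, was at 0.499 and 14.5 CPM in the untreated pair and 4.10 and 32.3 CPM in the LPS pair, 29.1-fold and 7.87-fold higher. Pdpn, the podoplanin gene of stromal cells and activated macrophages, was at 8.48 and 87.1 CPM in the untreated pair and 35 and 259 CPM in the LPS pair, 10.3-fold and 7.40-fold higher. For Nptx1 the level was lower after LPS on both sides, and for Dio2 and Pdpn it was higher on both, while the high-Lyz1 library stayed above its pair each time.

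**Figure D2:**
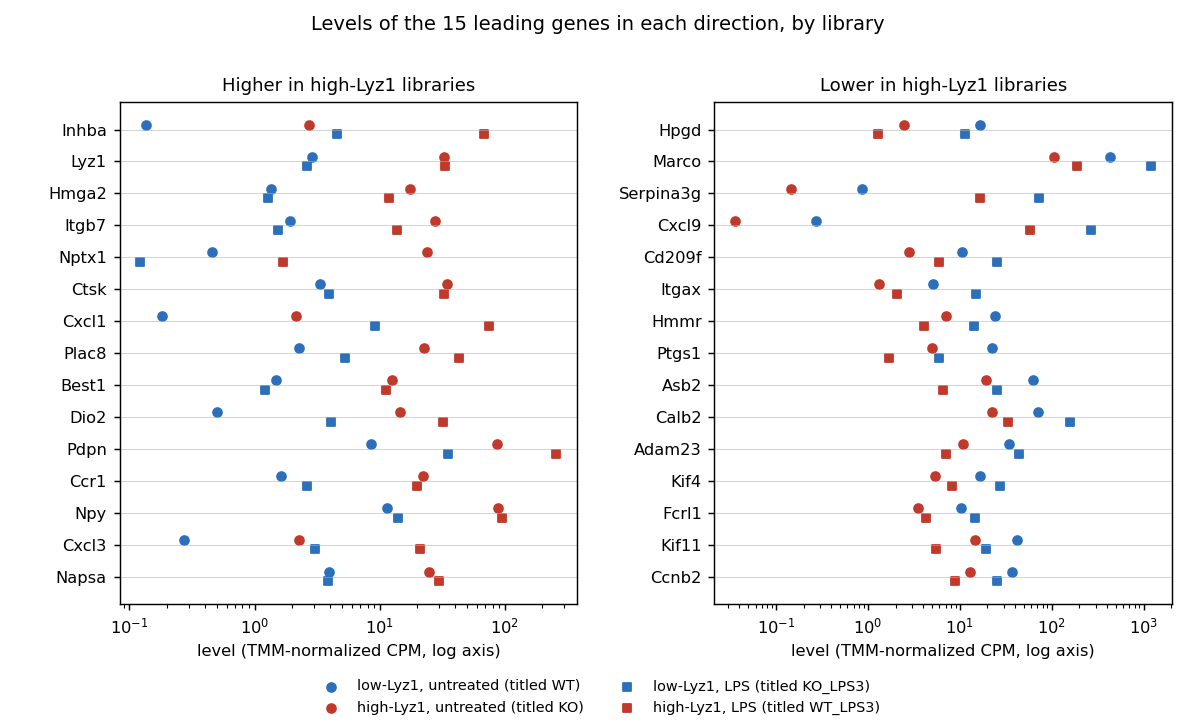
Levels in TMM-normalized CPM on a log axis of the 15 leading higher and 15 leading lower genes, with 1 point for each of the 4 libraries and no error bars because there is 1 library each. In both treatments the high-Lyz1 point lies to the right for Inhba to Napsa and to the left for Hpgd to Ccnb2, and Cxcl9, with 0 counts in the untreated high-Lyz1 library, is drawn there at the level of 1 count.

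The genes whose levels over the 4 libraries were most like Lyz1, measured as the summed squared difference of centred log2 CPM, were Ctsk (0.200), Hmga2 (0.202), Best1 (0.272), Ccr1 (0.386) and Ly6a (0.449). Ly6a, the Sca-1 surface protein gene, was at 103 and 629 CPM in the untreated pair and 57.3 and 728 CPM in the LPS pair. The nearest to the mirror image of Lyz1 were Hpgd (1.05), Myl4 (1.56), Pcdhac2 (1.99), Adam23 (2.17) and Gdpd3 (2.32). With 4 libraries this measure ranks the pattern the sides were built on and shows nothing beyond it.

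Chemokine receptors were among the gene groups with the largest share of higher genes. Of 9 tested, 4 were higher in both treatments (44.4%, beside 1.79% of all genes) and none lower, and the list's median log2 ratio was 1.80 untreated and 0.54 after LPS. They included Ccr1, Ccr2 and Ccr3, receptors of inflammatory CC chemokines that draw monocytes, macrophages and eosinophils.
Ccr1 was at 1.63 and 22.3 CPM in the untreated pair and 2.63 and 19.7 CPM in the LPS pair, 13.6-fold and 7.50-fold higher. Ccr2, the receptor that brings monocytes out of the marrow, was at 4.94 and 23.9 CPM in the untreated pair and 1.10 and 11.4 CPM in the LPS pair, 4.83-fold and 10.4-fold higher. Ccr3 was at 3.36 and 12.3 CPM in the untreated pair and 6.42 and 33.5 CPM in the LPS pair. For these 3 receptors both high-Lyz1 libraries lay above both low-Lyz1 libraries. Cxcr4, which retains cells in the marrow, and Cx3cr1, a receptor of patrolling monocytes and resident macrophages, passed 2-fold in the untreated pair only: Cxcr4 was at 44.8 and 156 CPM in the untreated pair and 10.4 and 8.85 CPM in the LPS pair, and Cx3cr1 at 15.1 and 6.04 CPM untreated.

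Among the ligands, 2 of 9 CC chemokines were higher in both treatments (22.2%, beside 1.79% of all genes). Ccl8, a monocyte attractant, was at 32.8 and 201 CPM in the untreated pair and 47.1 and 239 CPM in the LPS pair, 6.14-fold and 5.08-fold higher, with little effect of LPS. Ccl7 was at 4.22 and 14.9 CPM in the untreated pair and 344 and 695 CPM in the LPS pair, 3.54-fold and 2.02-fold higher. The LPS ratio of Ccl7 was just under 2-fold with DESeq2 size factors (log2 0.98) and with library totals (0.98).
Of 10 CXC chemokines, 2 were higher (20%) and 1 was lower (10%), beside 1.79% and 1.19% of all genes. Cxcl1 and Cxcl3, which attract neutrophils, were near 0 in untreated macrophages. Cxcl1 was at 9.24 and 74.5 CPM in the LPS pair, 8.06-fold higher (6.80 to 9.61), and at 0.181 and 2.13 CPM untreated. Cxcl3 was at 3.06 and 21.2 CPM in the LPS pair, 6.93-fold higher, and at 0.272 and 2.28 CPM untreated. Cxcl2, of the same family, was at 45.1 and 162 CPM in the LPS pair and 5.22 and 6.47 CPM untreated, so it passed after LPS only. The neutrophil attractants of one side were thus 3.59-fold to 8.06-fold above those of the other after LPS.
Cxcl9, an interferon-gamma-induced T-cell attractant, went the other way. It was at 271 and 57.9 CPM in the LPS pair, 4.68-fold lower in the high-Lyz1 library (4.37 to 5.02). In the untreated pair it had 6 counts in the low-Lyz1 library and 0 in the high-Lyz1 library. That is 2.51-fold lower when the 0 is set to a floor of 3 counts in that library. The counting interval of the untreated pair began at 1.48-fold lower, and on FPKM with a pseudocount of 1 its log2 ratio was -0.12.

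Monocyte genes are those that circulating and marrow monocytes express before they become macrophages. Of 14 tested, 6 were higher in both treatments (42.9%) and 2 lower (14.3%), beside 1.79% and 1.19% of all genes. The list's median log2 ratio was 1.00 untreated and 0.61 after LPS. Ly6c2, the Ly6C antigen of classical monocytes, was at 0.590 and 5.6 CPM in the untreated pair and 0.428 and 3.61 CPM in the LPS pair, 9.51-fold and 8.43-fold higher. Plac8 was at 2.27 and 22.7 CPM in the untreated pair and 5.32 and 42.9 CPM in the LPS pair, 10.0-fold and 8.05-fold higher. Ms4a4c, a membrane protein gene of monocytes, was at 8.35 and 124 CPM in the untreated pair and 63.8 and 312 CPM in the LPS pair, 14.8-fold and 4.89-fold higher. Ly6c2 stayed low everywhere beside general macrophage genes. The other higher members were Ccr2, Ms4a6b and Nr4a1.
The lower members were F13a1 and Treml4, a coagulation factor XIII chain gene and a TREM-family receptor gene of nonclassical monocytes. F13a1 was at 17.1 and 5.13 CPM in the untreated pair and 22.2 and 9.08 CPM in the LPS pair, 3.34-fold and 2.44-fold lower. Members of this list therefore stood on both sides, and S100a4, Spn, Itga4 and Ms4a6c passed in neither direction.

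Of 20 macrophage identity genes, 1 was higher in both treatments (5%) and 2 were lower (10%), beside 1.79% and 1.19% of all genes. In the untreated pair 3 were higher and 3 lower, beside 3.16% and 2.03% of all genes. In the LPS pair 1 was higher and 3 lower, beside 4.81% and 3.42%. The summed level of the 20 genes was 10890 and 11507 CPM in the untreated pair and 14445 and 15086 CPM in the LPS pair. The defining genes of the labelled cell type were thus present on both sides. Csf1r, Adgre1, Itgam and Spi1 were called in neither pair. Cd14, the LPS co-receptor, was at 291 and 688 CPM in the untreated pair and 1575 and 3366 CPM in the LPS pair, 2.36-fold and 2.14-fold higher. Irf8, a transcription factor of monocytes and macrophages, was at 171 and 210 CPM in the untreated pair and 818 and 285 CPM in the LPS pair, so it was 2.87-fold lower in the LPS pair only.

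Cathepsins, the proteases of lysosomes, had 3 of 14 members higher (21.4%, beside 1.79% of all genes) and none lower. Ctss, which trims the invariant chain for antigen presentation, was at 1234 and 4968 CPM in the untreated pair and 1488 and 5711 CPM in the LPS pair, 4.03-fold and 3.84-fold higher. Ctsl was at 1013 and 3798 CPM in the untreated pair and 849 and 2041 CPM in the LPS pair, 3.75-fold and 2.40-fold higher. Ctsk, the collagen-degrading cathepsin of osteoclasts, was at 3.36 and 34.3 CPM in the untreated pair and 3.92 and 32.5 CPM in the LPS pair, 10.2-fold and 8.30-fold higher. It was the only 1 of 9 tested osteoclast genes that was higher in both pairs: Acp5 was at 43.2 and 37.5 CPM untreated, and Dcstamp, Ocstamp and Oscar were below 1 CPM in every library. No gene of a further list of 26 lysosomal hydrolases and membrane proteins was called in both treatments, beside 2.99% of all genes. That list had medians of 0.20 and 0.18.

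Matrix proteases and their inhibitors had 5 of 17 members higher (29.4%, beside 1.79% of all genes) and none lower, with medians of 0.67 and 0.47. Mmp12, the macrophage elastase, was at 33.2 and 118 CPM in the untreated pair and 75.5 and 252 CPM in the LPS pair, 3.55-fold and 3.33-fold higher. Mmp8, a collagenase that neutrophils also store, was at 6.58 and 29.4 CPM in the untreated pair and 3.92 and 19.0 CPM in the LPS pair, 4.46-fold and 4.85-fold higher. Adam8, a sheddase of leukocytes, was at 463 and 1161 CPM in the untreated pair and 276 and 768 CPM in the LPS pair. The remaining higher members were Timp2, which inhibits metalloproteinases, and Adamts1. Timp2 was 2.07-fold and 2.19-fold higher.

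MHC class I genes present peptides from inside the cell to CD8 T cells. Of 17 tested, 5 were higher (29.4%, beside 1.79% of all genes) and none lower, with medians of 0.66 and 0.39. H2-K1 was at 1446 and 3881 CPM in the untreated pair and 2181 and 4917 CPM in the LPS pair, 2.68-fold and 2.26-fold higher. H2-D1 was at 2992 and 7067 CPM in the untreated pair and 4149 and 8397 CPM in the LPS pair, and its LPS ratio of 2.02-fold was just past the threshold. The Qa genes H2-Q6 and H2-Q7 had larger ratios, 11-fold and 7.35-fold untreated and 6.12-fold and 4.72-fold after LPS. The H2 genes are near-identical copies, so reads may be shared between them and each single value is uncertain. With library totals or DESeq2 size factors 4 of 17 passed.
MHC class II genes had none of 8 called in both pairs, beside 2.99% of all genes.

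Immediate early genes code for AP-1 and orphan nuclear receptors and are switched on within minutes of a signal. Of 23 tested, 6 were higher (26.1%, beside 1.79% of all genes) and none lower, with medians of 0.51 and 0.35. Fosb was at 0.998 and 3.62 CPM in the untreated pair and 4.04 and 19.5 CPM in the LPS pair, 3.62-fold and 4.83-fold higher. Nr4a1 was at 11.2 and 25.8 CPM in the untreated pair and 7.10 and 24.5 CPM in the LPS pair, 2.29-fold and 3.45-fold higher. Nr4a2, Nr4a3, Fosl2 and the MAP kinase phosphatase gene Dusp1 completed the group. All 3 Nr4a receptors were among them. Heat shock genes had 2 of 13 higher (15.4%, beside 1.79% of all genes), the near-identical pair Hspa1a and Hspa1b. Hspa1b was at 2.54 and 11 CPM in the untreated pair and 26.3 and 96.8 CPM in the LPS pair.

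Cytokines and inflammatory mediators gave more calls with LPS than without. Of 20 tested, 2 were higher in both treatments (10%, beside 1.79% of all genes), Inhba and Il1rn, the interleukin-1 receptor antagonist. Il1rn was at 32.6 and 81.8 CPM in the untreated pair and 498 and 1028 CPM in the LPS pair, 2.51-fold and 2.06-fold higher. After LPS 9 of the 20 were higher in the high-Lyz1 library, beside 4.81% of all genes, against 2 (3.16% of all genes) in the untreated pair.
Il1b, the pro-form of interleukin-1 beta, was at 215 and 941 CPM in the LPS pair, 4.37-fold higher, and at 4.04 and 5.13 CPM untreated. Ptgs2, the inducible cyclooxygenase, was at 63.4 and 270 CPM in the LPS pair, 4.26-fold higher. Ptges, which makes prostaglandin E2 from its product, was at 14.3 and 70.5 CPM in the LPS pair, 4.94-fold higher. Csf3, Il10, Nos2 and Tnfsf9 were the others. The LPS and untreated ratios were not compared by a test.

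Interferon and interferon-stimulated genes gave no call in both treatments among 30 tested, which in a list this short is near the 2.99% of all genes. Their medians were 0.39 untreated and -0.09 after LPS. Irf7, the amplifier of type I interferon, was at 136 and 606 CPM untreated, 4.45-fold higher, and at 800 and 1252 CPM in the LPS pair. Their summed level was 3091 and 4905 CPM in the untreated pair and 67093 and 55109 CPM in the LPS pair. NF-kB components and inhibitors had 1 of 23 higher (4.35%, beside 1.79% of all genes). It was Traf1, at 6.62 and 17.4 CPM in the untreated pair and 144 and 342 CPM in the LPS pair. No other member of either list was called in both treatments.

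**Figure D3:**
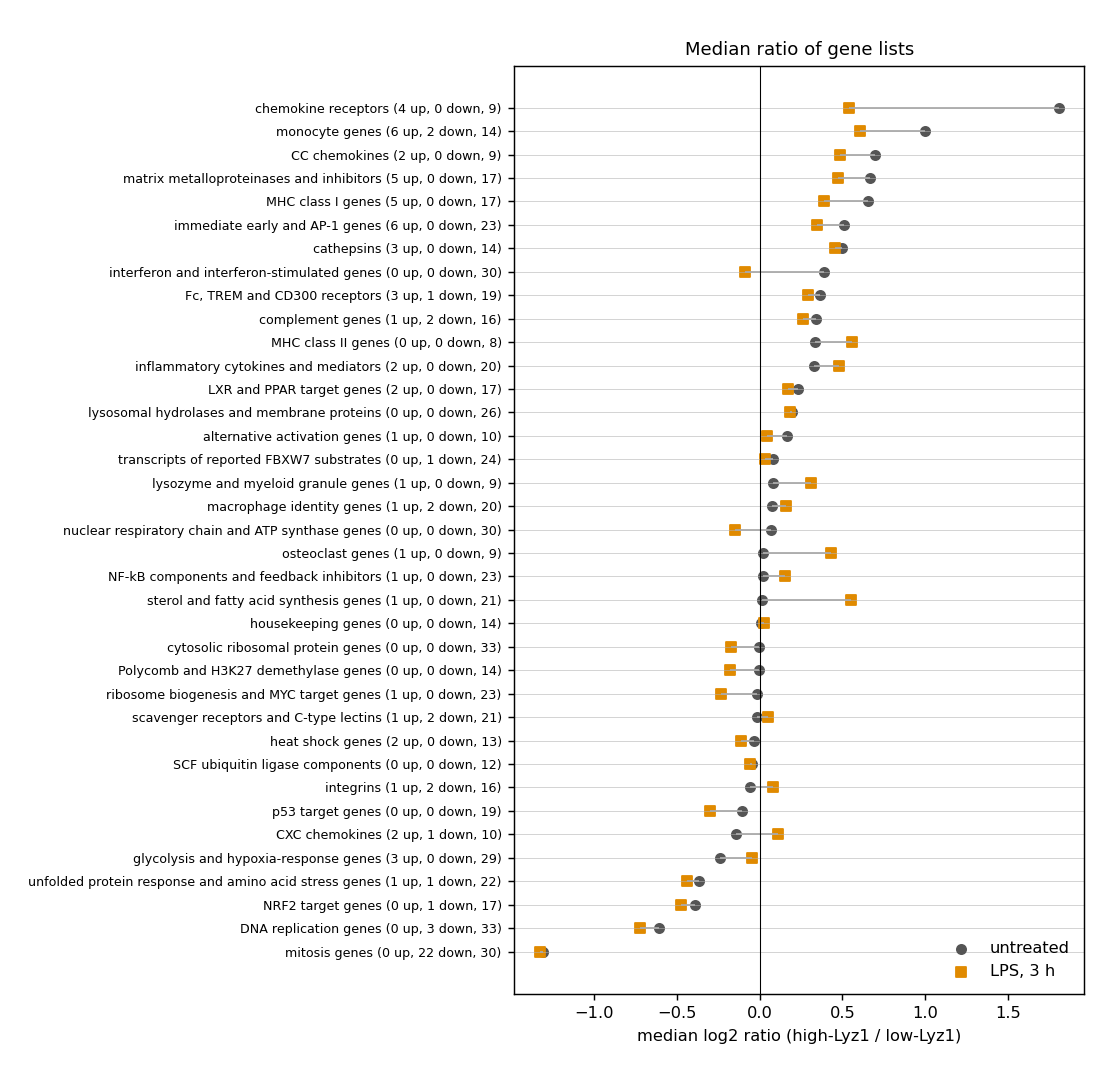
Median log2 ratio of high-Lyz1 over low-Lyz1 library (horizontal axis) for the tested genes of each list, untreated (circles) and with LPS (squares), with the number called higher (up) and lower (down) in both treatments and the number tested beside each name. Lists with fewer than 8 tested genes, among them markers of several other cell types, are not drawn. Among the lists drawn, chemokine receptors lie farthest to the right untreated (1.80) and mitosis genes farthest to the left in both pairs (-1.31 and -1.32).

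The genes lower in the high-Lyz1 libraries included most of the mitosis genes. Of 30 tested, 22 were lower in both treatments (73.3%, beside 1.19% of all genes), none was higher, and all 30 had a lower level in the high-Lyz1 library of both pairs. The list's median log2 ratio was -1.31 untreated and -1.32 after LPS, beside 0.03 and 0.02 for all genes. The summed level of the 30 genes was 1342 and 579 CPM in the untreated pair and 820 and 367 CPM in the LPS pair. Genes of this kind are transcribed late in the cell cycle, as cells prepare to divide.

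Ranked by the smaller of its ratios, Hmmr, a spindle and hyaluronan-binding protein gene, led the mitosis genes. It was at 24.3 and 7.01 CPM in the untreated pair and 14.4 and 4.13 CPM in the LPS pair, 3.47-fold and 3.49-fold lower. Kif11, the motor that separates spindle poles, was at 41.6 and 14.7 CPM in the untreated pair and 19.2 and 5.53 CPM in the LPS pair, 2.83-fold (2.51 to 3.19) and 3.46-fold (2.74 to 4.40) lower. Ccnb2, a B-type cyclin gene, was at 36.6 and 12.9 CPM in the untreated pair and 25.3 and 8.79 CPM in the LPS pair, 2.82-fold and 2.87-fold lower. Kif4, a chromosome-bound kinesin gene among the 15 leading lower genes but not on this list, was at 16.6 and 5.35 CPM in the untreated pair and 27.7 and 8.27 CPM in the LPS pair. All 4 genes were lower in the high-Lyz1 library of each pair, by 2.82-fold to 3.49-fold.
Birc5, a subunit of the chromosomal passenger complex, Top2a, the topoisomerase that untangles sister chromatids, and Plk1 and Aurka, mitotic kinases, were also lower in both. Top2a was the most abundant of the called genes, at 163 and 66.2 CPM in the untreated pair and 91.4 and 36.9 CPM in the LPS pair, 2.47-fold lower in each pair. The 8 not called in both were Mki67, Cenpe, Tpx2, Cdk1, Ttk, Cdca8, Ndc80 and Cenpa. Mki67, the proliferation marker Ki-67, was at 189 and 61.5 CPM untreated, 3.08-fold lower, and at 192 and 104 CPM in the LPS pair, 1.86-fold lower.

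**Figure D4:**
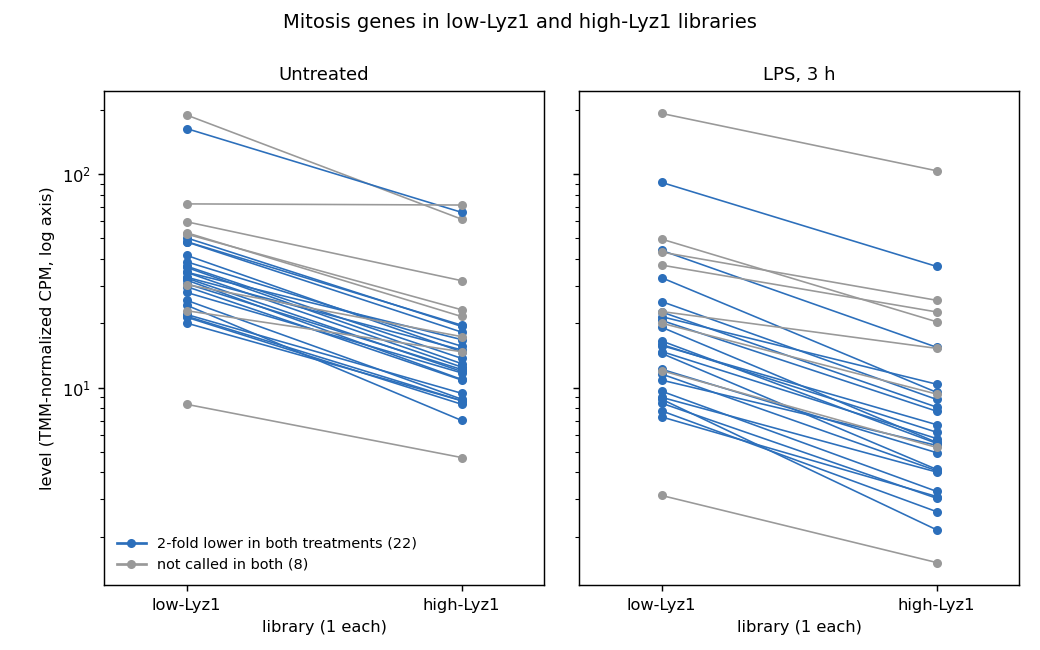
Levels of the 30 mitosis genes in the low-Lyz1 and high-Lyz1 library of the untreated pair (left) and of the LPS pair (right), in TMM-normalized CPM on a log axis, with 1 line per gene. Every line runs downward from the low-Lyz1 to the high-Lyz1 library, and 22 of the 30 pass 2-fold in both panels.

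The promoters of Hmmr, Kif11 and Ccnb2 are shown because they are the 3 leading lower genes of the mitosis list, and promoters of such genes often carry a CHR element, bound by the MuvB complexes that time late cell cycle genes, with CCAAT boxes, bound by NF-Y. Each is the 250 bases before the RefSeq start in GRCm38.p6, read 5′ to 3′ on the gene's strand, and capitals mark TTTGAA (CHR) and CCAAT or their reverse complements.
Hmmr, chr11:40733438-40733687, minus strand: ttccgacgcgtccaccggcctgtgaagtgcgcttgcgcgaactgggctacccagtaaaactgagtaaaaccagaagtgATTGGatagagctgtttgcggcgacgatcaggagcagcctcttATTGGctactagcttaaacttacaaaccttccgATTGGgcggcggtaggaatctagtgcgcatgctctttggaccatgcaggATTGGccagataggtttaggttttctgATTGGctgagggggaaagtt
Kif11, chr19:37376132-37376381, plus strand: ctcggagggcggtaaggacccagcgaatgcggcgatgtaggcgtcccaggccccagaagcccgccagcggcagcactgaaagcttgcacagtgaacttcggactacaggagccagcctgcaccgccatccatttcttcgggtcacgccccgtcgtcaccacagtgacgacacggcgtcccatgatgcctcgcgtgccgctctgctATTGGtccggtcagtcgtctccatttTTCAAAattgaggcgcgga
Ccnb2, chr9:70421555-70421804, minus strand: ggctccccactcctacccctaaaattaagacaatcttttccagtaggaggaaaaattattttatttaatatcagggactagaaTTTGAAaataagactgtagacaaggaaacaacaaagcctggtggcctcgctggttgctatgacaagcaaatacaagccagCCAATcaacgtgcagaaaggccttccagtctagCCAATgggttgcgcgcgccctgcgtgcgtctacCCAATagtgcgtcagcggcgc
Hmmr held 5 CCAAT matches and no CHR match, Kif11 held 1 of each, and Ccnb2 held 3 CCAAT matches and 1 CHR match.

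The same 250 bases were searched on both strands for all tested genes with a RefSeq entry, 9163 of 12326, among them 167 of the 221 higher and 118 of the 147 lower genes. CCAAT was present in 78.9% of the 19 promoters of called mitosis genes (15), in 53.4% of those of all lower genes, in 29.3% of those of higher genes and in 36.8% of those of all tested genes. TTTGAA was present in 31.6%, 20.3%, 12% and 10.5% of the same sets. The set of all lower genes contains the 19 called mitosis genes, so those 2 shares are not separate. Over the 26 mitosis genes tested that have a promoter entry, called or not, the shares were 80.8% for CCAAT and 30.8% for TTTGAA, much as in the called ones. The AP-1 element TGACTCA was present in 7.78% of the higher, 4.24% of the lower and 3.09% of all tested promoters, the kB element in 1.80%, 0.847% and 0.360%, and the PU.1 core GAGGAAGT in 5.99%, 4.24% and 2.84%. The kB matches among higher genes were 3 promoters. These shares describe letters in a window and were not tested.

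DNA replication genes leaned the same way by less. Of 33 tested, 3 were lower in both treatments (9.09%, beside 1.19% of all genes) and none higher, with medians of -0.61 and -0.72. Rrm2, a ribonucleotide reductase subunit, was at 67.3 and 31.4 CPM in the untreated pair and 32.5 and 11.2 CPM in the LPS pair, 2.14-fold and 2.89-fold lower. Uhrf1, which keeps DNA methylation through replication, was at 57 and 26.7 CPM in the untreated pair and 36.5 and 13.6 CPM in the LPS pair. Chaf1a, a chromatin assembly factor, was the third, 2.20-fold and 2.17-fold lower. With library totals, 5 of 33 were lower in both.

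Among lower genes outside the cell cycle, Hpgd, the dehydrogenase that inactivates prostaglandins, led with 16.5 and 2.46 CPM in the untreated pair and 11.3 and 1.28 CPM in the LPS pair, 6.70-fold (5.16 to 8.81) and 8.84-fold (5.66 to 14.4) lower. Ptgs1, the constitutive cyclooxygenase, was at 22.2 and 4.99 CPM in the untreated pair and 5.87 and 1.69 CPM in the LPS pair, 4.44-fold and 3.48-fold lower. Both genes were lower in the high-Lyz1 library of each pair.
Marco, a scavenger receptor for bacteria and particles, was the most abundant of the leading lower genes, at 434 and 106 CPM in the untreated pair and 1211 and 190 CPM in the LPS pair, 4.11-fold and 6.37-fold lower. Cd209f, a C-type lectin gene, was at 10.7 and 2.82 CPM in the untreated pair and 25.6 and 5.88 CPM in the LPS pair. Itgax, the CD11c integrin chain, was at 5.12 and 1.34 CPM in the untreated pair and 14.9 and 2.10 CPM in the LPS pair, 3.83-fold and 7.09-fold lower. Cd163, another scavenger receptor, was also lower, at 5.53 and 2.17 CPM untreated. Of 21 scavenger receptor and lectin genes tested, 1 was higher (Clec4e) and 2 were lower (Marco and Cd163), with medians of -0.02 and 0.05. These were 4.76% higher and 9.52% lower, beside 1.79% and 1.19% of all genes. Cd209f was not on that list.
Calb2, the calcium-binding protein calretinin, was at 70.6 and 22.4 CPM in the untreated pair and 157 and 33.7 CPM in the LPS pair, 3.15-fold and 4.67-fold lower. Asb2, a substrate receptor of cullin ubiquitin ligases, was at 63.4 and 19.1 CPM in the untreated pair and 25.2 and 6.52 CPM in the LPS pair. Adam23 was at 34.0 and 10.8 CPM in the untreated pair and 44.6 and 7.05 CPM in the LPS pair, 3.16-fold and 6.33-fold lower. Serpina3g, a serine protease inhibitor with close copies beside it, was at 72.3 and 16.8 CPM in the LPS pair and below 1 CPM untreated. Fcrl1, an Fc receptor-like gene, was at 10.4 and 3.47 CPM in the untreated pair and 14.8 and 4.31 CPM in the LPS pair. In all 5 genes the high-Lyz1 library was the lower one of each pair.

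Other groups had 1 to 4 members called, to be read beside the 1.79% higher and 1.19% lower of all genes. Of 16 complement genes, C1ra, an activating protease, was 2.81-fold and 2.23-fold higher, and Itgax, a complement receptor chain, was lower. Of 16 integrins, Itgb7 was higher, and Itga8 and Itgax were lower. Odc1, the first enzyme of polyamine synthesis, was the 1 of 23 ribosome biogenesis and MYC target genes called, at 166 and 377 CPM in the untreated pair and 500 and 1040 CPM in the LPS pair. Arg1, which splits arginine to feed that pathway, was at 1.32 and 11 CPM in the untreated pair, 8.36-fold higher (5.70 to 12.7), and had 2 and 10 counts in the LPS pair, where its interval of 1.01 to 44.7 was wide. With DESeq2 size factors or library totals Arg1 was not called. Pltp and Fabp4, lipid transfer and lipid-binding proteins under LXR and PPAR control, were higher among 17 such genes, and Pltp was at 958 and 1948 CPM in the untreated pair and 1033 and 2136 CPM in the LPS pair. Vegfa, Slc16a3 and Mxi1 were higher among 29 glycolysis and hypoxia-response genes, whose medians were -0.24 and -0.04. Vegfa was at 60.0 and 164 CPM in the untreated pair and 25.4 and 72.3 CPM in the LPS pair. Herpud1, a membrane protein of endoplasmic reticulum degradation, was lower at 62.7 and 23.4 CPM in the untreated pair and 62.5 and 19.1 CPM in the LPS pair, while Ddit3 was 2.23-fold and 3.62-fold higher in the same stress list of 22. Gsta3 was the 1 NRF2 target of 17 called in both, 3.79-fold and 5.17-fold lower (2 of 17 with DESeq2 size factors or library totals). Cd300lf, Trem1 and Treml2 were higher and Treml4 lower among 19 Fc, TREM and CD300 receptors, but with library totals Trem1 was not called (untreated log2 ratio 0.99).

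Core cellular machinery gave no calls in both treatments, beside 2.99% of all genes. This was 0 of 33 cytosolic ribosomal protein genes, 0 of 30 nuclear respiratory chain genes and 0 of 14 Polycomb genes. It was also 0 of 12 SCF components (1 lower with library totals) and 0 of 14 housekeeping genes. In lists this short, 0 calls is close to that share. Among transcripts of 24 reported FBXW7 substrates 1 was called (4.17%, beside 1.19% of all genes lower). It was Aurka, lower as on the mitosis list, and the medians of the substrate list were 0.08 and 0.03. Gapdh, a glycolytic enzyme often used as a reference, had 167 and 1805 counts in the untreated libraries, 8.62-fold higher in the high-Lyz1 library, and 58 and 63 counts after LPS. Gapdh has many processed pseudogene copies, so its counts are uncertain.

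Markers of other cell types were looked at because a marrow culture can hold them. The T and NK list of 14 summed to 54.8 and 161 CPM in the untreated pair and 92.0 and 176 CPM in the LPS pair, higher on the high-Lyz1 side, but Cd3e, Cd3d and Cd3g were each at 0.181 CPM or less in every library, and the sums came from Cd4 and Il7r. Il7r, the interleukin-7 receptor, was at 24.8 and 124 CPM in the untreated pair and 29.4 and 120 CPM in the LPS pair. The B cell list of 10 summed to 109 and 42.9 CPM in the untreated pair and 168 and 47.8 CPM in the LPS pair, from Ighm and Cd79b, while Pax5 was at most at 0.0723 CPM. Ighm was at 76.6 and 24.8 CPM in the untreated pair and 140 and 37.6 CPM in the LPS pair.
The neutrophil list of 14 summed to 187 and 294 CPM in the untreated pair and 185 and 256 CPM in the LPS pair. The untreated sums were carried by Csf3r, Cxcr4 and Mmp8, and the rise between those libraries lay in Cxcr4 and Mmp8. In the LPS pair Cxcr4 and Mmp8 were small parts of the sums. Retnlg had no count in any library and Ly6g was at 0 in 3 of the 4. The mast cell and basophil list of 13 summed to 2.31 and 9.87 CPM in the untreated pair and 22.3 and 27.1 CPM in the LPS pair. Prss34, a basophil protease gene, was at 0.590 and 3.72 CPM in the untreated pair and 0.184 (3 counts) and 2.62 CPM in the LPS pair. It was 6.32-fold (3.54 to 12.3) and 14.3-fold (4.58 to 71.8) higher. Mcpt8, another, was at 0.227 and 1.37 CPM in the untreated pair and 0.0612 and 0.990 CPM in the LPS pair, also from few counts. Most of the list's LPS sums came from members other than Prss34 and Mcpt8. The part of neutrophils, mast cells and basophils in the results was not tested.
The dendritic cell list of 11 summed to 15.3 and 9.83 CPM in the untreated pair and 34.3 and 20.8 CPM in the LPS pair, with Cd209a at 0 in all 4. The erythroid and megakaryocyte list of 13 summed to 114 and 86.1 CPM in the untreated pair and 132 and 63.7 CPM in the LPS pair, nearly all from Pf4, with Hbb-bs and Hbb-bt at 0. Fibroblast and stromal markers, 16 genes, summed to 8.16 and 7.70 CPM in the untreated pair and 19.0 and 11.6 CPM in the LPS pair. Progenitor markers, 10 genes, summed to 10.1 and 11.6 CPM in the untreated pair and 7.16 and 9.26 CPM in the LPS pair. The largest sum among these 8 lists, 294 CPM for neutrophil markers, stood beside 11507 CPM for the macrophage list in the same library.

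The chromosome around Lyz1 was described last. Within 5 Mb on either side 40 genes were tested, and 2 were called, both higher: Lyz1 itself, which chose the sides, and Hmga2. Without Lyz1 this was 1 of 39 genes (2.56%), near the 2.99% of all genes. Hmga2 lies at chr10:120361275-120476469 on the minus strand. The quartiles of the 40 genes were -0.07 and 0.24 in log2 ratio untreated and -0.14 and 0.41 after LPS. The called genes lay on chromosomes 1 to 19 and X, with no chromosome above 2.84% higher or 1.96% lower.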

How the data were processed

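RNA-seq libraries of 4 mouse macrophage cultures were analysed, 1 per title. Reads of 125 or 150 bases were aligned with HISAT2 2.0.5 to mm10, per the submitters' processing notes; the counting tool, its strand setting and its treatment of multiply mapped reads were not given in the sources used here. The authors deposited read counts and FPKM per gene in 1 table of 54532 genes, per the file headers. A further 8 per-sample columns of that table and its comparison columns were not used.

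Counts were scaled by TMM (edgeR 4.0.16, R 4.3.3) and a prior count of 2, scaled to library size, was added before log2 ratios. Genes with a mean of at least 1 CPM were kept (12326). The call of 2-fold in both treatments with exact 95% binomial counting intervals replaces a test: the sides were set from the same counts, and each side has 1 library per treatment. DESeq2 1.42.0 size factors, library totals, other filters and folds, FPKM and additive edgeR and DESeq2 models with treatment as covariate, which leave 1 residual degree of freedom and were used for fold changes only, were alternatives. FPKM were used only as an alternative, on a log2(FPKM + 1) scale. The added 1 makes ratios on that scale understate differences in genes at a low level.

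Named genes are the 15 protein-coding genes without provisional symbols that had the largest smaller absolute log2 ratio of the pairs in each direction among called genes with a mean of at least 5 CPM, up to 4 called genes per list and any called against its list's majority, Lyz1, Lyz2 and Fbxw7, called genes within 5 Mb of Lyz1, and the 5 called genes of each direction closest to Lyz1 or to its mirror image; other members of lists are named as examples after their values were seen. The sides, the lists and the members were chosen with earlier results of these data known. A few list members are not reported here. Promoter sequences came from RefSeq (GRCm38.p6) by symbol.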

Additional observations from a re-analysis of the deposited data

Results flagged for a closer look

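In 6 genes the high-Lyz1 library was at least 2-fold higher in one treatment and at least 2-fold lower in the other, so the libraries follow the titles rather than the Lyz1 level there. The difference between the treatments was not tested, since each ratio rests on 1 library per side. The log2 ratios of high-Lyz1 over low-Lyz1 were as follows. The gene 1700047I17Rik2 was at 2.07 untreated and -1.43 after LPS, and Cacnb4, a calcium channel subunit gene, at 1.10 and -1.33. Galnt3, a gene of O-glycosylation, was at -1.24 untreated and 1.55 after LPS. The processed pseudogene Gm12191 was at -1.37 and 1.52, Rpl30-ps1 at -1.79 and 1.22, and Rpl30-ps10 at -2.01 and 1.06. Of the 6, 3 are processed pseudogenes, whose reads can be shared with other copies. The levels of Gm12191 were 49.9 and 19.3 CPM in the untreated low- and high-Lyz1 libraries and 28.0 and 80.4 CPM in the LPS pair.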

How the results depend on the processing

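No paired analysis was possible because the titles carry no replicate numbers and each title has 1 library; leaving out a library would empty a side of its treatment. With DESeq2 size factors, 207 genes were higher and 159 lower in both treatments, and with library totals 187 and 185. Library totals shift the median of all genes by -0.11 untreated and -0.03 after LPS in log2, and ratios are relative to that: the untreated split went from 389 higher and 250 lower (60.9% higher) to 324 and 345 (48.4%), and the share of higher genes among those called in both from 60.1% to 50.3%. At 1.5-fold there were 521 higher and 430 lower, and at 4-fold 49 and 4. On FPKM with a pseudocount of 1 there were 87 and 37. The additive models gave 410 and 309 (edgeR) and 407 and 343 (DESeq2) at 2-fold, with no counting interval in each pair. They held all 221 and 147, which follows from their construction. A joint ratio of both pairs passes 2-fold where each pair does, so this is no separate check of the calls. Calls in the untreated pair went from 639 to 1157 without the expression filter, 384 at a mean of at least 5 CPM, 1719 at 1.5-fold, 94 at 4-fold and 229 on FPKM. Calls in the LPS pair went from 1014 to 549 at 5 CPM, 2321 at 1.5-fold, 166 at 4-fold and 370 on FPKM. Opposite calls went from 6 to 10 with library totals, 13 without the filter, 3 at 5 CPM, 45 at 1.5-fold, 0 at 4-fold and 3 among protein-coding genes. The cause was not tested beyond the construction of each setting. No ratio of a called, named gene reversed under DESeq2 size factors or library totals, or on FPKM where that was run. Scaling moves the ratios of a pair by a small common amount, and a pseudocount draws them toward no change. A 2-fold ratio could therefore hardly reverse, and the lack of reversals is no check of the calls. Of the mitosis list, 22 of 30 were lower with DESeq2 size factors and 23 with library totals. With library totals 4 of 17 matrix protease genes, 5 of 23 immediate early genes, 2 of 29 glycolysis genes and 1 of 17 LXR and PPAR targets were higher. Genes with few counts, such as Inhba and Nptx1 in the low-Lyz1 libraries, are limited by depth.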

Other observations

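Of 21 sterol and fatty acid synthesis genes, 5 were at least 2-fold higher on the high-Lyz1 side in the LPS pair (beside 4.81% of all genes) and 1 in the untreated pair (beside 3.16%), and the difference between the pairs was not tested. Scd1, a fatty acid desaturase, was higher in both, 2.42-fold and 3.06-fold. Idi1, an enzyme of cholesterol synthesis named after its values were seen, was at 5.26 and 14.0 CPM in the low- and high-Lyz1 libraries with LPS and at 5.94 and 4.95 CPM untreated. Cyp51 was at 15.1 and 34.6 CPM and Sqle at 14.4 and 31.0 CPM with LPS. Among 19 p53 target genes none was called in both treatments, beside 2.99% of all genes. With LPS 2 of the 19 were lower (beside 3.42% of all genes), Sesn1 at 19.6 and 5.30 CPM and Bbc3 at 87.5 and 33.6 CPM. In the same pair 1 was higher (beside 4.81% of all genes), Gdf15 at 1.04 and 3.09 CPM.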
